A study of Mus musculus with 8 samples.

Results

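The 33 genes described here are genes of endothelial cells, the cells that line blood and lymph vessels, measured across 4 sites of the mouse oral mucosa. They were chosen by symbol, and all 33 had an entry of their own among the 33136 single-gene entries of the count tables. The study compared 4 groups of wild-type C57BL/6J tissue: ventral tongue, dorsal tongue, hard palate and buccal mucosa (the lining of the cheek), with 2 samples per site numbered replicate 1 and replicate 2. The assay was tomo-seq, in which a tissue block is cut into serial cryosections and each section is sequenced as its own library. Every sample had 20 sections of 14 µm, prepared with CEL-seq2, a method that tags each RNA molecule with a unique molecular identifier (UMI). All 4 groups carried the wild-type genotype, and no treatment is given for any of them. No label ties the replicates to separate animals, and the p-values therefore cover only how far these samples spread, a spread that can be technical. The labels do not say which face of the tissue section 1 came from.

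Endothelial cells hold together through junction proteins such as VE-cadherin (Cdh5) and claudin 5 (Cldn5), and they respond to vascular endothelial growth factors (VEGF) and angiopoietins through the receptors Kdr, Flt1, Flt4, Tie1 and Tek. Blood vessels divide into arteries, capillaries and veins, and capillaries of muscle and fat carry proteins for lipid uptake such as Gpihbp1. Lymphatic vessels drain tissue fluid and are set apart by the transcription factor Prox1, the receptors Lyve1 and Flt4 and the matrix protein Mmrn1. These 4 genes were taken as the lymphatic members and the remaining 29 as the other members. Lyve1 is also made by some tissue macrophages, and Vwf and Selp by platelets and megakaryocytes.

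The promoters of a few members are shown to set members that were higher toward the last sections (Tie1, Tek, Kdr, Robo4 and Flt1) beside members that did not pass that test (Selp, Prox1 and Ackr1). The 250 bases before the start of each gene were read from RefSeq (GRCm38.p6), in which 17 of the 33 members were matched and used. Erg belongs to the ETS family of transcription factors, which bind a GGAA core. The letters CAGGAA and CCGGAA were searched on both strands (TTCCTG and TTCCGG on the other strand, where TTCCGG and CCGGAA can share bases). At least 1 match was held by 34.9% of 27025 promoters of the same length and by 10 of the 17 member promoters (58.8%). The sequences run 5′ to 3′ on the strand of the gene, and capitals mark the matches. They are from Tie1 (chr4:118489850-118490099, minus strand, 1 match), Tek (chr4:94739039-94739288, plus strand, 2 matches), Kdr (chr5:75978456-75978705, minus strand, 1 match), Robo4 (chr9:37401722-37401971, plus strand, 1 match), Selp (chr1:164115014-164115263, plus strand, 0 matches) and Prox1 (chr1:190170828-190171077, minus strand, 0 matches), and from Flt1 (chr5:147726012-147726261, minus strand, 0 matches) and Ackr1 (chr1:173333504-173333753, minus strand, 3 matches).
Tie1: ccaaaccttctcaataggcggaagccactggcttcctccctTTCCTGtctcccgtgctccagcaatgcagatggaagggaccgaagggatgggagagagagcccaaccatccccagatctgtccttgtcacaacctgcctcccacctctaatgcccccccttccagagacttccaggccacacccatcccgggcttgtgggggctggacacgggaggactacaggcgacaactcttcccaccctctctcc
Tek: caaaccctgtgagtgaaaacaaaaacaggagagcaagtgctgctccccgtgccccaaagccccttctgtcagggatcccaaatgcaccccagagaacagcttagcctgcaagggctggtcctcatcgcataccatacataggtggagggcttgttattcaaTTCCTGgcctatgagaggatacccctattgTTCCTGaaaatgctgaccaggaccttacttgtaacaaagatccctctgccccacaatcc
Kdr: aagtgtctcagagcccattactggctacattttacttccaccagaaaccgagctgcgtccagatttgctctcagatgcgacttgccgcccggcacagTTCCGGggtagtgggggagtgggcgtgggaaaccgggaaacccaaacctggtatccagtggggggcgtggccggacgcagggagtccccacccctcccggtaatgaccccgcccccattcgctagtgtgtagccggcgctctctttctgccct
Robo4: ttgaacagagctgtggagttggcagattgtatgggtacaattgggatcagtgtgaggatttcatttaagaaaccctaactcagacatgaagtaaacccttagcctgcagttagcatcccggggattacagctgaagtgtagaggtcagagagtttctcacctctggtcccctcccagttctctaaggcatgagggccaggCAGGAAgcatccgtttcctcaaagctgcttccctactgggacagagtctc
Selp: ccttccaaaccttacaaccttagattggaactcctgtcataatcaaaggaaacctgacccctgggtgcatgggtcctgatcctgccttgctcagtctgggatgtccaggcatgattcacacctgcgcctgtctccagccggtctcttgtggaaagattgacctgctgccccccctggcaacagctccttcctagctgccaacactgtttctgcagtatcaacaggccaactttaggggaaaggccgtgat
Prox1: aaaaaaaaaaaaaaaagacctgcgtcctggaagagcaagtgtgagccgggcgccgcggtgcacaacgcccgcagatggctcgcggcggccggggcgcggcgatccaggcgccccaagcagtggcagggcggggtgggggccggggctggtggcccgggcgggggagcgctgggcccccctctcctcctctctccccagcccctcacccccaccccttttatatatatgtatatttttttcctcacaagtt
Flt1: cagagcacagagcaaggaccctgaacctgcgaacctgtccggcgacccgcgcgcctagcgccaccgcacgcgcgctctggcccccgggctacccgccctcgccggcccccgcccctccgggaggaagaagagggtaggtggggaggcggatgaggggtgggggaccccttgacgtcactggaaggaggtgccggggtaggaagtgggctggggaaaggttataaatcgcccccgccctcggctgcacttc
Ackr1: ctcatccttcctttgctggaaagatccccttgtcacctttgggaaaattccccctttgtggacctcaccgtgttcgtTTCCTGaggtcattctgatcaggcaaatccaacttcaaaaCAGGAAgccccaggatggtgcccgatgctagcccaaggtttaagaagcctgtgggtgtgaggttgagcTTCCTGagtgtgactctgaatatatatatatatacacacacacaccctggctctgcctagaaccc
Of the 10 matched members that were higher in sections 11 to 20, 6 held at least 1 match, and of the other 7, which did not pass or were not tested, 4 did. Flt1, Eng, Cldn5 and Erg were higher with 0 matches, while Ackr1 did not pass with 3. A match is only a run of letters, and its absence says only that these letters are not in this window.

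The samples held between 7830471 and 26376536 UMIs summed over their sections, and levels are given as CPM, the UMI counts scaled to the same total in every sample. Replicate 2 of the buccal mucosa was the shallowest and stood apart from the other 7 samples. Its 20 keratinocyte genes summed to 856 CPM, against 12140 to 22260 in the others, and its salivary gland genes to 17180 CPM, against 25.0 to 106. Along the sections, the keratinocyte genes were lower in sections 11 to 20 than in sections 1 to 10 in all 8 samples, by a ratio of 0.499 to 0.975. Of the 160 sections, 5 held fewer than 50000 UMIs and were left out of the section profiles. The most UMIs of a member in 1 section were 377, for Plvap.

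The endothelial label was met in every sample. Pecam1, the platelet-endothelial adhesion molecule, was lowest at 32.6 CPM, Cdh5 at 11.2 CPM and Kdr, the main receptor of VEGF-A, at 13.2 CPM. All 33 members together made up 862 and 1195 CPM in buccal mucosa, 578 and 525 CPM in dorsal tongue, 391 and 656 CPM in hard palate, and 961 and 785 CPM in ventral tongue. Both buccal and both ventral tongue samples lay above the other 4. In sections of whole tissue, fewer endothelial cells and less RNA per cell cannot be told apart.

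Of the 33 members, 3 were too low for most tests. Egfl7, a secreted vascular protein, had 1 to 19 UMIs per sample, and a second entry that joins it with an overlapping gene had 0 to 5. Mmrn1 stayed at or below 0.309 CPM except in replicate 1 of the hard palate, where 71 UMIs gave 4.001 CPM. Sele, the cytokine-induced selectin E, lay between 0.128 and 0.451 CPM except in replicate 2 of the hard palate, where 88 UMIs gave 3.34 CPM. For Mmrn1 and Sele, 1 palate sample was high and the other was not. After the filter on low counts, 30 of the 33 members were tested between sites and between sections.

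**Figure D1:**
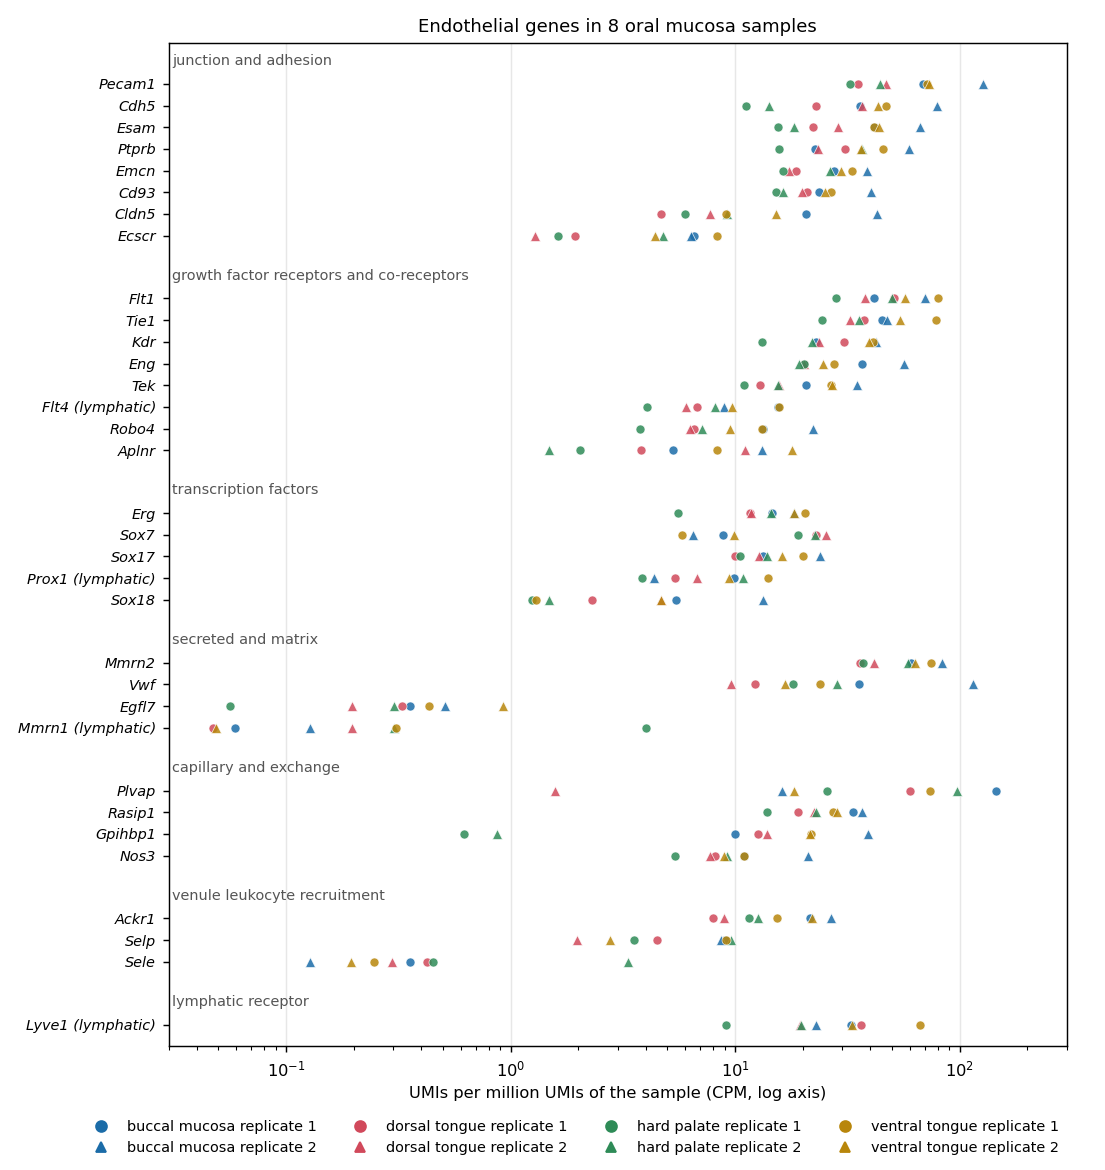
Level of each of the 33 endothelial genes (vertical axis, grouped by role) in each of the 8 samples, in CPM on a log axis; colour gives the site and shape the replicate. Gpihbp1 in both hard palate samples lies far left of its other 6 values, and Plvap spreads from 1.57 to 146 CPM with replicates of a site apart.

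Between sites, 2 members passed the test of any difference, Gpihbp1 and Sox7 (edgeR quasi-likelihood test, Benjamini-Hochberg adjusted over 18609 genes). That is 2 of 30 members tested, where 4.76% of all genes passed. At an unadjusted p under 0.05 it was 19 members, beside 22.8% of all genes, and with DESeq2 it was 14, beside 17.6%. Gpihbp1, which anchors lipoprotein lipase on the capillary wall, was at 9.95 and 39.0 CPM in buccal mucosa, 12.7 and 13.9 CPM in dorsal tongue, 0.620 and 0.872 CPM in hard palate, and 21.8 and 21.5 CPM in ventral tongue. Both palate samples, with 11 and 23 UMIs, lay below all 6 others (adjusted p = 0.0354 by edgeR for any site difference). Sox7, a transcription factor of early vascular development, was at 8.83 and 6.51 CPM in buccal mucosa, 23.0 and 25.4 CPM in dorsal tongue, 18.99 and 22.6 CPM in hard palate, and 5.81 and 9.94 CPM in ventral tongue. Its 4 dorsal tongue and palate values all exceeded its 4 buccal and ventral values (adjusted p = 0.0474 by edgeR). The summed members, by contrast, were highest in buccal mucosa and ventral tongue. Both calls were kept without either buccal sample and lost without any one of the other 6 samples, with edgeR adjusted p of 0.107 to 0.254 for Gpihbp1 and 0.110 to 0.231 for Sox7. Without either buccal sample more members were called (Esam and Cdh5 without replicate 2), and so were more of all genes.

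In the hard palate, Gpihbp1, Cdh5, Esam and Aplnr were lower than in the other 3 sites, and no member was higher. These are 4 of 30, where 9.76% of all genes passed, 6.42% lower and 3.35% higher. At an unadjusted p under 0.05 it was 18 members, beside 26.2% of all genes, and with DESeq2 it was 14, all lower, beside 16.7%. The members' median log2 difference was -0.90, beside -0.01 over all genes tested, and 28 of the 30 were negative. A set of 6 members (Cdh5, Cd93, Kdr, Esam, Aplnr and Gpihbp1) was lower in both palate samples than in each of the other 6, as were 10.2% of all genes.

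Among the junction genes, Cdh5 was at 11.2 and 14.1 CPM in the palate, against 36.0 and 79.4 CPM in buccal mucosa, 23.0 and 36.9 CPM in dorsal tongue, and 46.8 and 43.4 CPM in ventral tongue. Its mean was 12.7 ± 2.11 CPM (SD, n = 2) in the palate and 44.2 ± 19.1 CPM (SD, n = 6) elsewhere, a log2 difference of -2.06 ± 0.41 (SE), with an edgeR adjusted p of 0.0260. Esam, an adhesion molecule of endothelial junctions, was at 15.5 and 18.2 CPM in the palate and at 22.1 to 66.5 CPM in the other samples, with no overlap. Its log2 difference was -1.50 ± 0.28 (SE, edgeR adjusted p = 0.0219). The other 6 junction members, Pecam1, Ptprb, Emcn, Cd93, Cldn5 and Ecscr, had log2 differences from -1.11 to -0.61 and did not pass.

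Of the capillary genes, Gpihbp1 had a mean of 0.746 ± 0.178 CPM (SD, n = 2) in the palate and 19.8 ± 10.5 CPM (SD, n = 6) elsewhere. The log2 difference was -4.96 ± 0.67 (SE, edgeR adjusted p = 0.00797). The other 3 capillary members did not pass: the log2 differences of the nitric oxide synthase Nos3 and the lumen gene Rasip1 were -0.86 and -0.87, and that of Plvap 0.04. Among the receptors, Aplnr, the apelin receptor, was at 2.03 and 1.48 CPM in the palate and at 3.82 to 17.9 CPM elsewhere, a log2 difference of -2.75 ± 0.67 (SE, edgeR adjusted p = 0.0486). The VEGF receptors Kdr, Flt1 and Flt4 differed by -1.20, -0.81 and -1.01 and the angiopoietin receptors Tie1 and Tek by -0.96 and -1.04 on the log2 scale, and none of the 5 passed.

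The palate calls depended on single samples. That of Gpihbp1 was lost without replicate 1 (edgeR adjusted p = 0.0952) or replicate 2 of the palate (0.0605). Those of Esam, Cdh5 and Aplnr were lost without any one dorsal tongue, palate or ventral tongue sample, at edgeR adjusted p of 0.0533 to 0.262. Without either buccal sample more members were called, as were more of all genes. The members' median log2 difference was then -0.88 without buccal replicate 1, beside 0.10 over all genes. Without buccal replicate 2 it was -0.85, beside 0.01. Scaling by total UMIs instead of TMM moved the median of all genes to 0.29 on the log2 scale and the share of higher calls over all genes from 34.3% to 58.3%, and the members' median was then -0.60, with 3 members lower.

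Some genes that work beside these members were also lower in the palate. A list of 110 vascular partner genes, not members, gave 104 tested, of which 13 were lower and 3 higher, where 6.42% and 3.35% of all genes were, and 88 did not pass. By class, 3 of 8 capillary partners were lower, 4 of 19 surface and junction partners, 3 of 22 ligands and 2 of 17 receptors. Tcf15, a transcription factor of capillaries that take up fatty acids, was at 0.395 and 0.796 CPM in the palate and at 14.6 to 32.0 CPM elsewhere, a log2 difference of -5.49 ± 0.49 (SE, edgeR adjusted p = 0.00295). Cd36, a fatty acid carrier of capillaries that fat cells also make, was at 4.001 and 7.58 CPM against 87.3 to 375 CPM, a difference of -5.18 ± 0.75 (adjusted p = 0.00976). The ligand Vegfb was at 17.8 and 17.4 CPM against 102 to 240 CPM, a difference of -3.47 ± 0.39 (adjusted p = 0.00464). Ednrb, an endothelin receptor, was at 2.59 and 4.93 CPM against 8.56 to 22.6 CPM, a difference of -2.28 ± 0.42 (adjusted p = 0.0213). For each of these 4 genes both palate samples lay below every other sample. Without palate replicate 1 or 2 the Cd36 call was lost (0.109 and 0.0600), without replicate 1 that of Vegfb (0.0588), and without either palate sample, either dorsal tongue sample or ventral tongue replicate 1 that of Ednrb (0.0505 to 0.160). The call of Tcf15 was kept in all 8 fits that left out a sample.

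Skeletal muscle genes moved with this difference. All 22 genes of the muscle list had entries, and their sum was 598 and 241 CPM in the palate, against 17970 to 50650 CPM in the other 6 samples. Of 21 tested, 17 were lower in the palate, where 6.42% of all genes were. The adipocyte list, which summed to 267 and 330 CPM in the palate and 734 to 5849 CPM elsewhere, was also lowest there. Fibroblast genes overlapped, at 3722 and 7676 CPM in the palate and 4537 to 7626 CPM elsewhere. The part of muscle and fat in the palate's lower endothelial genes was not tested.

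**Figure D2:**
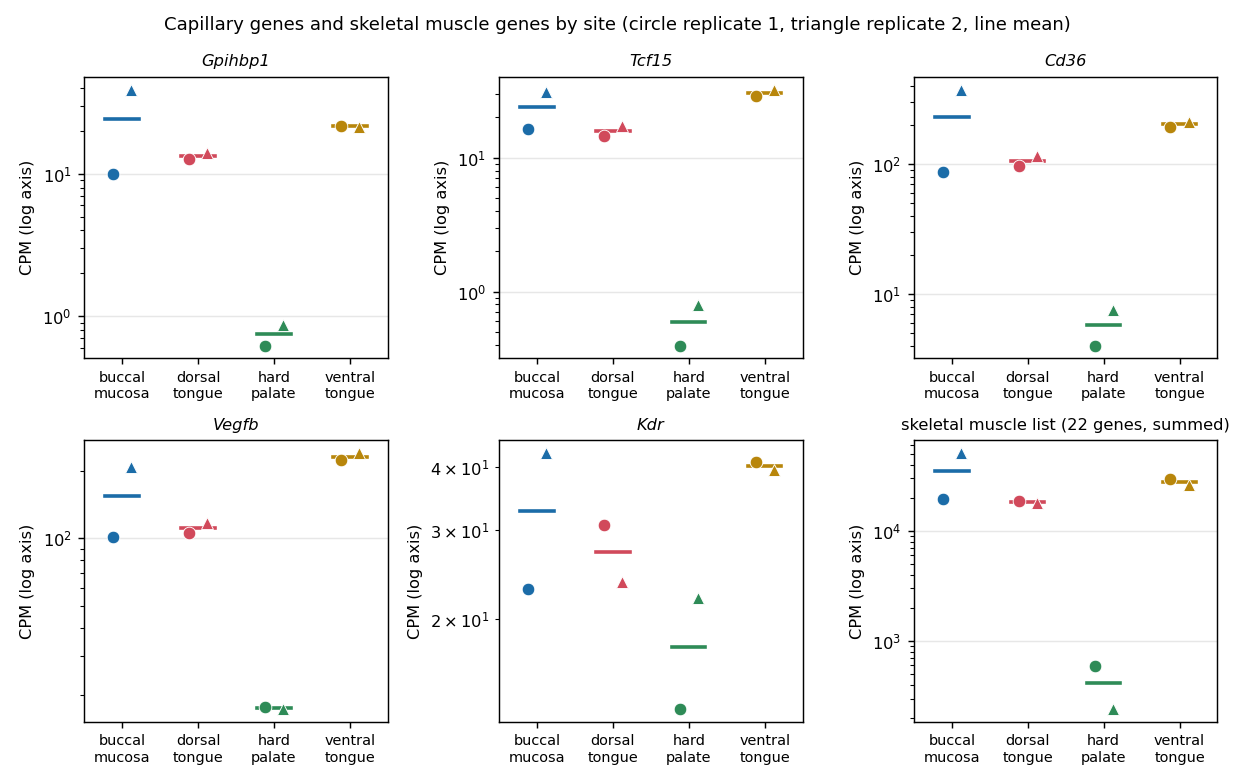
CPM on a log axis (vertical; each panel has its own range) by site for the member Gpihbp1, the partners Tcf15, Cd36 and Vegfb, the member Kdr and the sum of 22 skeletal muscle genes; circles are replicate 1, triangles replicate 2 and lines the mean of both. In 5 of the panels the palate lies far below the other sites, while Kdr in the palate, at 13.2 and 21.99 CPM, comes close to the lowest other value of 22.9 CPM.

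The other 3 sites had no member that passed when set against the rest by edgeR. In buccal mucosa, 0 of 30 members passed, where 0.72% of all genes did, with 15 at an unadjusted p under 0.05 (19.4% of all genes) and 8 by DESeq2 (7.48%). Vwf, the clotting factor carrier stored in endothelial granules, was at 35.6 and 115 CPM there, 12.3 and 9.64 CPM in dorsal tongue, 18.1 and 28.4 CPM in hard palate, and 23.8 and 16.7 CPM in ventral tongue, a log2 difference of 2.08 ± 0.42 (SE, edgeR adjusted p = 0.0768). Cldn5 was at 20.7 and 42.9 CPM in buccal mucosa and at 4.66 to 15.2 CPM elsewhere, a difference of 1.89 ± 0.37 (SE, edgeR adjusted p = 0.0759). In dorsal tongue, 0 of 30 members passed by edgeR, where 0.838% of all genes did, with 4 at an unadjusted p under 0.05 (9.09%) and 1 by DESeq2 (2.9%). In ventral tongue, 0 of 30 passed by edgeR, where 1.29% of all genes did, with 10 at an unadjusted p under 0.05 (11.8%) and 2 by DESeq2 (4.56%). These counts changed when a buccal sample was left out. Without buccal replicate 1, which leaves the sample that stood apart to stand for the site, 13 members were higher in buccal mucosa and Sox7 was lower, among 5093 of 20227 genes called, and without replicate 2 it was 0. Without replicate 1 or 2, Sox7 passed as higher in dorsal tongue (log2 differences of 1.52 and 1.35), as did Gpihbp1 (0.90 and 1.53). Gpihbp1 also passed as higher in ventral tongue (1.61 and 2.34). The sites it was set against include the palate, where Gpihbp1 was at 0.620 and 0.872 CPM. Its dorsal tongue values of 12.7 and 13.9 CPM lay below both ventral tongue values, 21.8 and 21.5 CPM. Vwf was lower in dorsal tongue without buccal replicate 1 (log2 difference -1.52). The members' median log2 difference was 0.66 for buccal mucosa, -0.21 for dorsal tongue and 0.54 for ventral tongue.

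Several partners did differ at these sites. Foxc1, a transcription factor of vessel and mesenchyme development, was at 43.1 and 30.8 CPM in buccal mucosa and 5.94 and 6.40 CPM in dorsal tongue, with the palate at 14.5 and 17.2 CPM and the ventral tongue at 25.9 and 28.0 CPM. It was higher in buccal mucosa (log2 difference 1.37 ± 0.20 SE, edgeR adjusted p = 0.0484) and lower in dorsal tongue (-1.78 ± 0.24 SE, adjusted p = 0.0279). Thbd, thrombomodulin, stood at 143 and 93.3 CPM in dorsal tongue, above the 39.7 to 57.9 CPM elsewhere (1.48 ± 0.22 SE, adjusted p = 0.0381). Slit2, a guidance ligand, was at 42.2 and 49.4 CPM in the palate and 4.60 to 18.03 CPM elsewhere (adjusted p = 0.0220 for any site difference). Tcf15 and Vegfb were higher in ventral tongue, by 2.42 ± 0.31 (SE, adjusted p = 0.0246) and 1.89 ± 0.28 (SE, adjusted p = 0.0351). Each of these calls was lost without any one dorsal tongue, palate or ventral tongue sample, at adjusted p of 0.0627 to 0.517.

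Most of the members other than the lymphatic ones were higher toward the last sections. Between sections 1 to 10 and sections 11 to 20 of the same sample, 22 of 30 members were higher in sections 11 to 20 and none was lower (edgeR with sample as a block, adjusted over 15312 genes), where 18.5% of all genes were higher. The members' median log2 difference was 0.70, beside 0.02 over all genes. In 8 of 8 samples 16 members were higher, as were 10.6% of all genes, and 22 in at least 7 of 8, as were 24.6%. The exception among samples was buccal replicate 2, in which the called members had log2 ratios of -0.31 (Vwf) to 0.31 (Nos3). With RLE scaling in place of TMM the share of higher calls over all genes went from 57.3% to 48.1%, and with total UMIs to 69.8%, and the count of members stayed at 22, all higher. Without buccal replicate 2 it was 24, all higher, with a median of 0.79.

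All 8 junction and adhesion members rose. Pecam1 went from 19.2 CPM (lowest), 37.6 CPM (median) and 126 CPM (highest) in the first 10 sections to 43.8, 74.0 and 129 CPM in the last 10, a log2 difference of 0.87 ± 0.13 (SE, edgeR adjusted p = 0.000527). Cdh5 went from 6.19, 22.6 and 75.6 CPM to 15.1, 53.4 and 82.4 CPM, a difference of 0.97 ± 0.13 (SE, edgeR adjusted p = 0.000361). Per sample its log2 ratio was 1.24 and 0.12 in buccal mucosa, 0.76 and 1.23 in dorsal tongue, 0.91 and 1.68 in the palate, and 1.15 and 0.89 in ventral tongue. All 8 ratios were above 0, with replicate 2 of the buccal mucosa the smallest and replicate 2 of the palate the largest. Esam went from a median of 22.7 CPM (8.49 to 65.3) to 44.1 CPM (20.4 to 67.5). The phosphatase Ptprb, which acts on Tek and Cdh5, went from 19.9 CPM (11.2 to 57.4) to 40.3 CPM (21.5 to 60.9). The sialomucin Emcn went from 18.7 CPM (9.63 to 34.3) to 33.2 CPM (20.3 to 41.9). The ranges overlapped for each of these 5 genes, while sections 11 to 20 were the higher ones within all 8 samples. Cd93, a lectin-like receptor, went from a median of 16.4 CPM (7.43 to 41.0) to 26.3 CPM (20.3 to 39.9), and Cldn5 from 4.94 CPM (3.10 to 42.8) to 12.7 CPM (4.91 to 43.0). Ecscr, a surface protein of low level here, rose by 0.85 on the log2 scale.

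Of 8 receptors and co-receptors, 7 rose, the exception being Flt4. Tie1 went from 15.7, 31.6 and 50.5 CPM (lowest, median and highest) to 34.5, 49.8 and 96.5 CPM, a difference of 0.83 ± 0.11 (SE, edgeR adjusted p = 0.000402). Tek, the angiopoietin receptor proper, went from a median of 13.4 CPM (7.09 to 36.0) to 24.9 CPM (15.7 to 34.9). The VEGF-A receptor Kdr went from 21.3 CPM (9.99 to 42.2) to 33.5 CPM (15.5 to 49.8). Flt1, which binds VEGF-A and Vegfb, had the smallest called difference, 0.52 ± 0.07 (SE, edgeR adjusted p = 0.000487), from 37.6 CPM (23.6 to 67.1) to 61.3 CPM (34.1 to 91.9). Eng, a co-receptor for the TGF-beta family, went from 18.7 CPM (8.05 to 59.5) to 27.7 CPM (22.9 to 54.3). Robo4, a receptor that steadies vessels, went from 6.24 CPM (2.30 to 22.3) to 10.7 CPM (4.44 to 22.4). Tie1, Kdr, Flt1 and Robo4 were higher in sections 11 to 20 of all 8 samples, and Tek, Eng and Aplnr in 7 of 8.

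Of 5 transcription factors, Erg and Sox17 rose. Erg went from 9.82 CPM (3.85 to 17.2) to 19.6 CPM (7.75 to 24.2), a difference of 0.82 ± 0.15 (SE, edgeR adjusted p = 0.00163). Sox17, which marks arteries, went from 8.71 CPM (6.79 to 25.8) to 19.1 CPM (12.4 to 25.9), a difference of 0.90 ± 0.14 (SE, edgeR adjusted p = 0.000691). Of the 3 SOX factors of this family Sox17 alone passed, and whether they differ from each other was not tested. Sox18 had a log2 difference of 0.56 ± 0.21 (edgeR adjusted p = 0.0613), and Sox7 one of -0.00 ± 0.13 (adjusted p = 0.993), with a median of 14.2 CPM in sections 1 to 10 and 14.8 CPM in sections 11 to 20.

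Both tested matrix and secreted members rose: Mmrn2, a matrix protein of vessel walls, from 41.0 CPM (21.7 to 81.7) to 72.4 CPM (45.5 to 86.9), and Vwf from 11.97 CPM (7.57 to 129) to 29.03 CPM (11.4 to 104), a difference of 0.78 ± 0.24 (SE, edgeR adjusted p = 0.0252). The Vwf call was lost without buccal replicate 1, dorsal replicate 2, either palate sample or ventral replicate 1, at edgeR adjusted p of 0.0539 to 0.0671. Of 4 capillary members 3 rose. Gpihbp1 had the largest difference of all members tested, 1.11 ± 0.18 (SE, edgeR adjusted p = 0.00112), from 6.97 CPM (0.442 to 38.4) to 18.6 CPM (0.635 to 39.4). Nos3 went from 6.80 CPM (4.46 to 18.5) to 11.2 CPM (6.60 to 23.1), and Rasip1 from 18.7 CPM (10.5 to 34.9) to 30.5 CPM (18.03 to 41.8). Plvap, which forms the diaphragms of capillary pores, had a difference of 0.13 ± 0.22 (edgeR adjusted p = 0.670).

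Neither tested venule member passed. Ackr1, a chemokine-binding receptor of venules, had a log2 difference of 0.46 ± 0.24 (SE, edgeR adjusted p = 0.162), and Selp, the P-selectin that captures leukocytes, one of 0.04 ± 0.28 (adjusted p = 0.925). Over whole samples Ackr1 was at 21.6 and 26.7 CPM in buccal mucosa, 8.01 and 8.91 CPM in dorsal tongue, 11.5 and 12.7 CPM in hard palate, and 15.3 and 22.1 CPM in ventral tongue. Selp was at 9.01 and 8.68, 4.48 and 1.97, 3.55 and 9.55, and 9.08 and 2.78 CPM in the same order. Both dorsal tongue values were the lowest for Ackr1, while for Selp the replicates of the palate and of the ventral tongue lay near opposite ends of the range. Per sample, the log2 ratio of Selp ran from -1.30 in ventral replicate 1 to 1.88 in palate replicate 2.

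**Figure D3:**
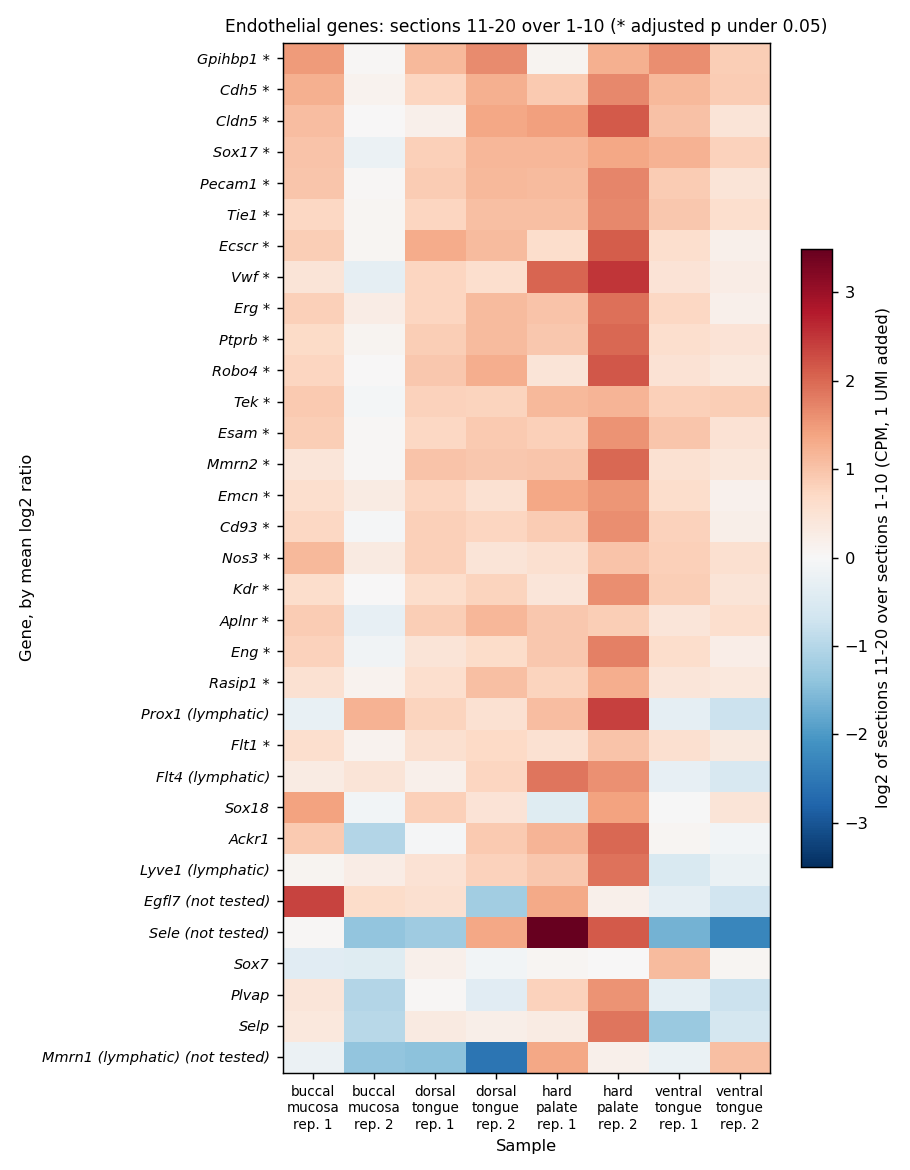
The log2 ratio of sections 11 to 20 over sections 1 to 10 (colour, from CPM with 1 UMI added) for each of the 33 genes (rows, in order of their mean) in each of the 8 samples (columns); asterisks mark an adjusted p under 0.05 by edgeR. Most rows are red in 7 samples and pale in buccal replicate 2. The lymphatic genes Prox1, Flt4 and Lyve1, and also Plvap and Selp, are red in the palate and blue in the ventral tongue.

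The lymphatic members did not pass this test, and whether they differ from the other members in it was not tested. Of the 3, Flt4, the receptor for VEGF-C, had a log2 difference of 0.44 ± 0.21 (SE, edgeR adjusted p = 0.134), Lyve1, a hyaluronan receptor, 0.39 ± 0.19 (0.130), and Prox1, the factor that sets lymphatic identity, 0.45 ± 0.28 (0.233). Per sample the Prox1 ratio was -0.27 and 1.21 in buccal mucosa, 0.79 and 0.52 in dorsal tongue, 1.08 and 2.39 in the palate, and -0.32 and -0.76 in ventral tongue. The Lyve1 ratio was 0.09 and 0.27, 0.51 and 0.79, 0.95 and 1.91, and -0.53 and -0.24 in the same order. The Flt4 ratio was 0.28 and 0.45, 0.19 and 0.76, 1.86 and 1.60, and -0.28 and -0.56. All 3 were higher in sections 11 to 20 of both palate samples and lower in those of both ventral tongue samples.

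The test of whether the difference along the sections depends on the site was passed by none of these 3, at edgeR adjusted p of 0.0818 for Flt4, 0.0948 for Lyve1 and 0.153 for Prox1. The same pattern, lower in both ventral and higher in both palate samples, was met by 7 of the 33 members, as by 22.3% of all genes, which is near that background. The 7 were Flt4, Lyve1 and Prox1 and, outside the lymphatic members, Plvap, Selp, Sele and Egfl7. Without buccal replicate 2, the sample that stood apart, all 3 passed this test (edgeR adjusted p = 0.0339 for Flt4 and for Lyve1 and 0.0388 for Prox1), with Vwf and Plvap (0.0339) the other members among 538 of 18345 genes called. Without buccal replicate 1 they passed too (adjusted p of 0.0183 to 0.0223), as did Vwf, Plvap and Ackr1, among 988 of 18802 genes, and without palate replicate 1 Lyve1 did (0.0279). With DESeq2 on all samples, Flt4 and Lyve1 passed the test of dependence on the site along with Vwf, 3 members in all, where 2.34% of all genes passed. Among 12 lymphatic partner genes 10 were tested along the sections, and 1 was higher and 1 lower, near the 18.5% and 13.8% of all genes.

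Over whole samples, Lyve1 was at 32.8 and 23.0 CPM in buccal mucosa, 36.2 and 19.4 CPM in dorsal tongue, 9.07 and 19.7 CPM in hard palate, and 66.6 and 33.1 CPM in ventral tongue. Prox1 was at 9.89 and 4.34, 5.42 and 6.74, 3.83 and 10.8, and 14.1 and 9.40 CPM in the same order. Flt4 was at 15.5 and 8.94, 6.74 and 6.05, 4.06 and 8.15, and 15.8 and 9.70 CPM. Replicate 1 of the ventral tongue was highest and replicate 1 of the palate lowest for each of the 3 genes.

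The 4 lymphatic members took 6.77% (95% exact binomial interval 6.36 to 7.19) and 3.05% (2.71 to 3.42) of the member UMIs in the 2 buccal samples. The share was 8.39% (7.90 to 8.89) and 6.17% (5.72 to 6.64) in dorsal tongue, 5.36% (4.85 to 5.92) and 5.94% (5.59 to 6.30) in hard palate, and 10.1% (9.60 to 10.6) and 6.65% (6.27 to 7.05) in ventral tongue. These intervals cover counting error only. The replicates of buccal mucosa, dorsal tongue and ventral tongue differed by more than that. Both palate shares lay below both shares of each tongue site, and the other pairs of sites overlapped. This order rested on Lyve1, and without it the palate shares did not lie below those of the tongue sites. Lyve1 held 161 of 372 and 519 of 1028 lymphatic UMIs in the palate. In dorsal tongue it held 769 of 1028 and 394 of 658, and in ventral tongue 1078 of 1566 and 679 of 1072. No test was run on these shares.

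Within samples the share changed along the sections. In ventral tongue it was 15.2% and 8.58% in the first 10 sections and 7.79% and 5.10% in the last 10. In hard palate it was 4.70% and 4.82% in the first 10 and 5.80% and 6.22% in the last 10. In dorsal tongue it went from 8.84% to 8.16% and from 6.66% to 5.93%, and in buccal mucosa from 8.04% to 5.37% in replicate 1 and from 2.53% to 3.46% in replicate 2. The share was thus lower in the last 10 sections of 5 samples and higher in those of both palate samples and buccal replicate 2. In ventral tongue the lymphatic sum went from 116 to 84.6 CPM and from 59.2 to 45.1 CPM, and the sum of the other 29 from 647 to 1002 CPM and from 630 to 839 CPM. In the palate both sums were higher in the last 10 sections, the lymphatic one going from 13.1 to 30.9 CPM and from 14.7 to 57.2 CPM.

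The section profiles placed the lymphatic signal at other sections than the rest in the ventral tongue. Averaged over 3 neighbouring sections, the lymphatic sum peaked at section 6 in replicate 1 (168 CPM) and section 3 in replicate 2 (73.2 CPM), whereas the other members peaked at sections 14 and 17. In the palate the lymphatic sum peaked at sections 19 and 17 and the other members at section 19 in both. In dorsal tongue both peaked at section 19 in replicate 1 and section 18 in replicate 2. In buccal mucosa the lymphatic peaks were at sections 9 and 13 and the others at section 11. Lyve1 in ventral replicate 1 was at 34.7 CPM in section 1, 130 CPM in section 7 and 49.9 to 70.4 CPM from section 10 on, so its maximum lay within the first 10 sections.

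Across sections of 1 sample, which share a tissue block and a depth gradient, Spearman's rho between the lymphatic and the other sum was 0.58 and 0.57 in buccal mucosa, 0.78 and 0.76 in dorsal tongue, 0.87 and 0.94 in the palate, and 0.06 and -0.50 in ventral tongue (17 to 20 sections each). The sums ran together in 6 samples and apart in both ventral tongue samples. The centre of mass of the lymphatic sum lay 1.89 and 1.99 sections before that of the other members there, against 0.83 and 0.39 sections after it in the palate. Its centre fell 0.98 and 0.23 sections before in buccal mucosa, and 0.67 and 0.53 before in dorsal tongue.

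Macrophage genes, which bear on Lyve1, had entries for 12 of 12 list members and summed to 429 and 662 CPM in buccal mucosa, 314 and 344 CPM in dorsal tongue, 177 and 323 CPM in hard palate, and 572 and 457 CPM in ventral tongue, with none of the 12 at 0 in any sample. Their rho with the lymphatic sum across sections was 0.24 and -0.44 in ventral tongue, 0.59 and 0.92 in the palate, 0.64 and 0.67 in dorsal tongue and 0.53 and 0.56 in buccal mucosa. With the other members it was 0.82 and 0.64 in ventral tongue. In ventral replicate 2 the macrophage genes thus ran with the other members and against the lymphatic sum. The part of macrophages in the Lyve1 level was not tested.

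**Figure D4:**
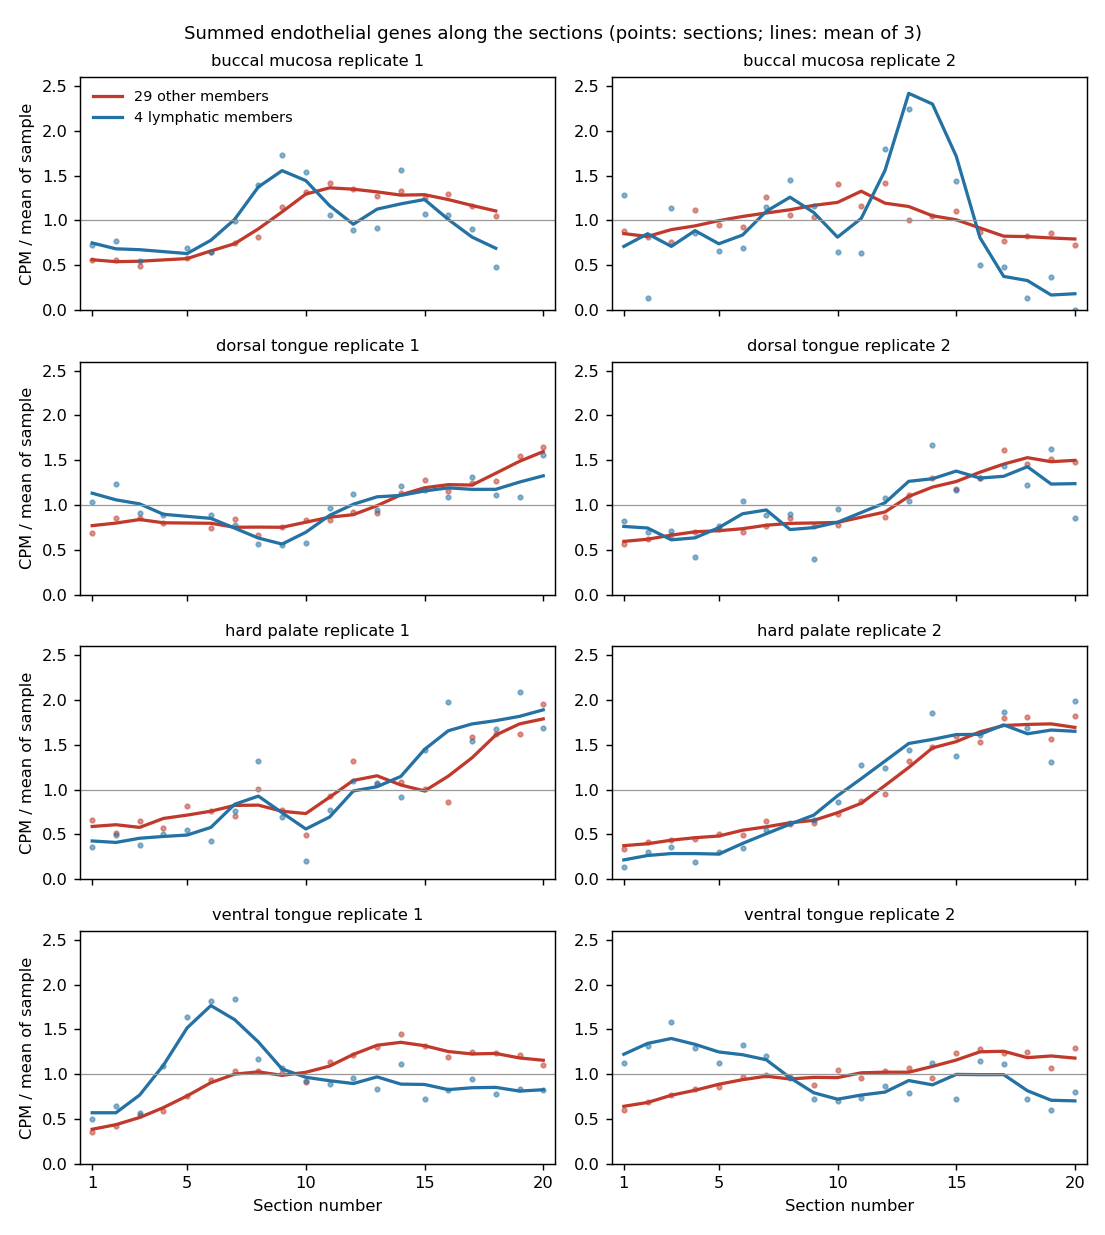
Summed CPM of the 4 lymphatic members (blue) and the 29 other members (red) in each section, divided by its mean over the sample's sections (vertical axis), against the section number, for 8 samples; points are sections and lines the mean of 3 sections. In the ventral tongue the blue lines peak at sections 6 and 3 and the red lines at 14 and 17, while in the palate both climb to the last sections.

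The difference between the first and last 10 sections depended on the site for Vwf, 1 of 32 members tested, where 0.408% of all genes passed (edgeR adjusted p = 0.0438). At an unadjusted p under 0.05 there were 10 members, beside 15.1% of all genes. Vwf rose from 7.60 to 31.2 CPM and from 7.69 to 43.9 CPM in the 2 palate samples, log2 ratios of 2.03 and 2.50. In the other sites it went from 31.5 to 42.7 and 129 to 104 CPM in buccal mucosa, 8.76 to 14.9 and 7.57 to 11.4 CPM in dorsal tongue, and 19.04 to 26.8 and 15.2 to 18.3 CPM in ventral tongue, ratios of -0.31 to 0.76. The 2 palate ratios lay above the other 6 without overlap. The call was kept without either buccal sample and lost without any one of the other 6, at edgeR adjusted p of 0.0504 to 0.151. Platelet genes had 8 of 8 entries and summed to 91.1 to 163 CPM in 6 samples and 329 and 221 CPM in the palate, of which Ppbp made up 266 and 130 CPM. Between the first and last 10 sections this sum went from 351 to 300 CPM in palate replicate 1 and from 151 to 274 CPM in replicate 2. Pf4 was at 11.2 and 44.2 CPM in the palate and at 34.8 to 88.7 CPM elsewhere. Gp6 was at 0 in 6 of the 8 samples and at most 0.0564 CPM, and Gp9 at most 0.114 CPM. The part of platelets in the Vwf level was not tested.

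Sections were also sorted by their keratinocyte level into epithelium-rich and epithelium-poor sections of each sample. The names are relative to the sample, and the levels of single sections overlapped between the 2 kinds in the palate and dorsal tongue samples. In palate replicate 1 the mean log2 level of the keratinocyte genes was 9.065 to 9.36 in rich and 8.88 to 9.17 in poor sections. In buccal replicate 2 the mean log2 level of the 20 keratinocyte genes was 4.38 to 5.87 in the sections named rich, below the 7.53 to 9.17 of the sections named poor in the other 7 samples, and without that sample 24 members were higher and none lower. In the epithelium-poor sections 23 of 30 members were higher and none lower, where 19.6% of all genes were higher (edgeR, adjusted over 15231 genes). The members' median log2 difference was 0.67, beside 0.01 over all genes. The 23 were the 22 that rose along the sections and Sox18, at 0.67 ± 0.18 (SE, edgeR adjusted p = 0.0157). Called differences ran from 0.44 for Flt1 to 1.30 for Gpihbp1. Lyve1, Flt4 and Prox1 were at 0.24, 0.29 and 0.42 and did not pass, nor did Sox7 (0.06), Plvap (0.15), Selp (0.10) and Ackr1 (0.49). The share of higher calls over all genes was 58.7%, 48.2% with RLE scaling and 71.7% with total UMIs, and the members' count stayed at 23 in each. The calls of Vwf (0.0636 and 0.0544) and Flt1 (0.0518 and 0.0570) were lost without buccal replicate 1 or dorsal replicate 2, and that of Sox18 without buccal replicate 1 (0.0743) or ventral replicate 2 (0.0526). The same libraries were sorted in both ways, so this comparison is not independent of the one by section number.

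Of 100 partner genes tested between the first and last 10 sections, 59 were higher and 5 lower, where 18.5% and 13.8% of all genes were, and 36 did not pass. The 5 were Klf4, Maf, Notch1, Jag1 and Unc5b, with log2 differences of -0.66 to -0.26. Cd36 rose by 1.24 on the log2 scale, from a median of 51.7 CPM (2.21 to 372) to 159 CPM (3.94 to 377). Tcf15 rose by 1.19, from 8.10 CPM (0.304 to 33.7) to 27.1 CPM (0.508 to 39.7). Sema3g, a ligand of arterial endothelium, rose by 1.01, from 8.54 CPM (6.40 to 23.1) to 17.99 CPM (12.3 to 33.8), and Gata2, an endothelial transcription factor, by 0.98, from 6.20 CPM (3.85 to 17.6) to 13.7 CPM (6.35 to 21.4). Sema3g was higher in 8 of 8 samples and the other 3 in 7. By class, 16 of 19 tested surface and junction partners were higher, 7 of 8 capillary, 10 of 14 transcription factors, 6 of 10 arterial, 4 of 7 venous, 8 of 17 receptors and 9 of 20 ligands, each beside the 18.5% of all genes. The summed level of the receptor partners had ratios of the last over the first 10 sections from 0.939 to 1.43 and 3 samples below 1, and that of the arterial partners had ratios from 1.000 to 1.47.

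Pericyte and smooth muscle genes, which belong to the cells that wrap vessels, followed the other members across the sections of a sample. Spearman's rho between their sum and that of the 29 other members was 0.74 and 0.82 in buccal mucosa, 0.81 and 0.98 in dorsal tongue, 0.95 and 0.99 in the palate, and 0.88 and 0.89 in ventral tongue. With the muscle list it was -0.28 in buccal replicate 2 and -0.19 in palate replicate 1 and 0.63 to 0.92 in the other 6. With the keratinocyte list it ran from -0.95 in dorsal replicate 2 to 0.03 in buccal replicate 2. Of 14 pericyte and smooth muscle genes tested between the first and last 10 sections, 11 were higher, where 18.5% of all genes were.

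Members tracked each other to different degrees. For each member with at least 100 UMIs in a sample, its section levels were set against the sum of the other members, which gave 206 pairs of member and sample over 30 members. The median rho was 0.72, with a range from -0.57 for Selp in ventral replicate 1 to 0.96 for Mmrn2 in palate replicate 2, and 10 of the 206 were negative. Tie1 (median 0.88) and Pecam1 (0.82) ran closely with the rest in all 8 samples. Sox7 did not, with a median of -0.0015 over the 6 samples in which it had enough UMIs and a range from -0.39 to 0.32.

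Replicates of a site differed most for Plvap. It was at 146 and 16.2 CPM in buccal mucosa, 60.4 and 1.57 CPM in dorsal tongue, 25.6 and 97.3 CPM in hard palate, and 74.0 and 18.3 CPM in ventral tongue. The ratio between replicates was 8.997, 38.4, 3.79 and 4.04 in that order, with replicate 1 higher at 3 sites and replicate 2 in the palate. The lowest value, in dorsal replicate 2, rested on 32 UMIs. The mean absolute log2 ratio between replicates was 3.08 for Plvap, 2.00 for Mmrn1, 1.10 for Aplnr and 1.08 for both Selp and Sox18. Pecam1 differed far less, at 68.5 and 128, 35.3 and 47.0, 32.6 and 44.3, and 71.6 and 73.1 CPM. The Plvap values of all 4 sites thus overlapped, and no site comparison of it held up against the spread between replicates.

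**Figure D5:**
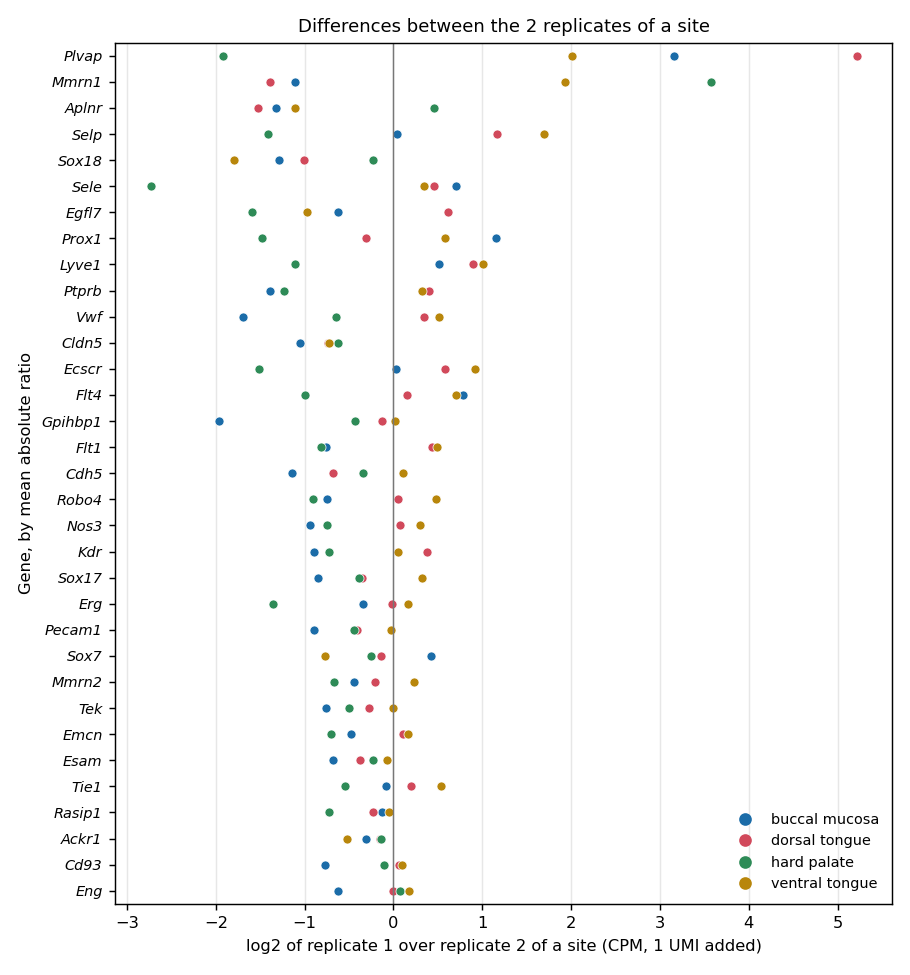
The log2 ratio of replicate 1 over replicate 2 of the same site (horizontal axis, from CPM with 1 UMI added) for each of the 33 genes (rows, in order of the mean absolute ratio), with a point for each site. Plvap and Mmrn1 reach ratios above 3 in size, whereas most genes lie between -1 and 1.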

How the data were processed

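The assay was tomo-seq with CEL-seq2 on 20 sections of each of 8 samples. Per the submitters' processing notes, reads were trimmed with Trim Galore 0.6.10 and aligned to GRCm38 with STAR 2.7.9a. Which program counted the UMIs is not given in any source used here. The deposited tables hold UMI counts per gene and section, which were used throughout. The authors also deposited read counts and transcript numbers estimated from the UMIs (estimated counts), which served as alternatives, the latter rounded to whole numbers. Entries that join several genes (413 of 33549, under 0.251% of a sample's UMIs) stayed in the library totals and were no members.

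Groups came from the labels. Sections were summed per sample, per set of 10 sections (1 to 10 and 11 to 20) and per epithelium-rich or epithelium-poor region, set by Otsu's threshold on the running median over 3 sections of 20 keratinocyte genes. Sums were tested with edgeR 4.0.16 (TMM, filterByExpr, quasi-likelihood F-test, Benjamini-Hochberg over all genes, threshold 0.05) in R 4.3.3. Each site was set against the mean of the other 3. Comparisons of section sets and regions had the sample as a block, and the interaction of section set and site was tested separately. The SE is the absolute log2 fold change divided by the square root of F. DESeq2 1.42.0 was an alternative, as were RLE scaling, total UMIs, no filter, sections 1 to 5 against 16 to 20 and leaving out each sample. Python 3.11.15 with pandas 2.3.3 and SciPy 1.17.1 did the rest. The tests were also run on simulated counts with the same spread for every gene and no differences between replicates beyond it. That setting cannot show how the tests behave at the replicate spread of these samples. The share of the lymphatic members has exact (Clopper-Pearson) 95% intervals. A floor of 3 UMIs corresponds to 0.114 to 0.383 CPM.

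The members, lists and tests were chosen with earlier results of these data known. All 33 members were counted in each comparison. Members called between sites or along the sections with a mean of at least 10 CPM are given with their values, per sample for sites and mostly as lowest, median and highest over the 8 samples for section sets, as are the lymphatic and venule members. Of the partner genes, those named were the up to 4 called ones with the largest change per comparison and a mean of at least 10 CPM. Of the others named, Aplnr, Plvap, Egfl7 and the 5 partners that fell were chosen after their values were seen.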

Additional observations from a re-analysis of the deposited data

Results flagged for a closer look

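Vwf was the member whose difference between sections 11 to 20 and sections 1 to 10 depended on the site (edgeR adjusted p = 0.0438 for the interaction of section set and site). Its log2 ratio was 2.03 and 2.50 in the hard palate and -0.31 to 0.76 in the other 6 samples.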

How the results depend on the processing

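Over the 8 fits that each left out 1 sample, 21 to 24 members were called along the sections and 20 to 24 in the epithelium-poor sections, beside 22 and 23. Without the sample as a block, 3 members were called between the first and last 10 sections (Esam, Tie1 and Rasip1). Calls over all genes were then 165 of 15312, against 4941 with the block. Over the fits that left out 1 sample, the site counts were less stable, and so were the site calls over all genes. In each site comparison and in the interaction, the fits that called the most members also called the most genes. Leaving out 1 sample gave 0 to 14 members for any site difference, 0 to 14 for buccal mucosa, 0 to 3 for dorsal tongue, 1 to 14 for hard palate, 0 to 1 for ventral tongue and 0 to 6 for the interaction of section set and site. Without palate replicate 1 the palate's single call was Sele, higher by 3.32 on the log2 scale, and without palate replicate 2 it was Mmrn1, higher by 4.71, each the gene at a high level in the sample kept. Where a site keeps 1 sample, that sample is assumed to vary like the other sites. DESeq2 called 14 members for any site difference, 8 for buccal mucosa, 1 for dorsal tongue, 14 for hard palate, 2 for ventral tongue and 3 for that interaction. Without the filter on low counts the numbers were 14, 7, 3, 10, 3 and 12, where 4522, 2584, 1282, 3728, 1321 and 1958 of 33545 genes were called. With total UMIs as the scale 1 member (Gpihbp1) was called for any site difference and 3 (Vwf, Flt4 and Lyve1) for the interaction. Over all genes 921 of 18609 and 155 of 17905 were. With read counts it was 1 (Gpihbp1) and 0, where 782 of 19180 and 31 of 18483 genes were called. Sections 1 to 5 against 16 to 20 gave 0 for the interaction, beside 3 of 15803 genes, and 22 between the ends, beside 4564 of 13391. Total UMIs moved the median of all genes to -0.22 for dorsal tongue and -0.13 for ventral tongue. The median lymphatic share over samples was 2.8% without Lyve1, against 6.41% with it. The labels do not say whether replicate numbers pair samples across sites. Correlations of the replicate differences between sites ran from -0.20 to 0.55, with 2 of 6 above 0.1. The highest was that of dorsal with ventral tongue, and the next was 0.14, for buccal mucosa with hard palate. With the replicate number as a block, 1 member was called for any site difference (Cldn5 at adjusted p = 0.0439, with Gpihbp1 at 0.0568 and Sox7 at 0.0931), 4 for the palate and 0 for each other site. The cause of these changes was not tested. No direction of a called member turned under any alternative that was run. Egfl7, Mmrn1 and Sele had too few UMIs to pass the filter on low counts in most comparisons, and low level and limited depth cannot be told apart there.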
